A study of Mus musculus with 6 samples.

Results

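Transcripts of 10 ETS family transcription factors were followed in mouse pancreas after deletion of Ptf1a. The genes were chosen by symbol, namely Ehf, Elf3, Elf1, Elf2, Elf4, Ets1, Ets2, Erf, Etv6 and Gabpa, and all 10 were found among the 10245 genes of the deposited expression table.

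RNA-seq was done on whole pancreata of 6 adult mice, 3 control and 3 Ptf1a cKO. Controls carried Ptf1a(CreER/+) and were 4 months old at sacrifice, and Ptf1a cKO mice carried Ptf1a(CreER/fl) and were 5 months old, so age and genotype cannot be told apart. All mice were gavaged with tamoxifen on 3 consecutive days, each time with 0.25 mg per g, and were sacrificed on day 14, counted from the day of the earliest dose. The CreER allele sits in the endogenous Ptf1a locus and makes no PTF1A protein, so the controls were heterozygous for Ptf1a, and recombination is driven only in cells that express Ptf1a, which in the adult pancreas are acinar cells. By the study's genotype list, both groups also carried a Cre-activated R26R EYFP reporter. Control 1 and Ptf1a cKO 2 were male and the other mice female. Since whole pancreas was sequenced, fewer cells of a type and less RNA per cell cannot be told apart in any of these values.

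ETS factors share a winged helix-turn-helix domain that binds DNA around a GGAA or GGAT core. Members differ in where they are made and in how they are controlled: Ehf and Elf3 belong to the epithelium-specific branch, Ets1 and Ets2 are activators phosphorylated downstream of RAS and ERK, Erf and Etv6 are repressors, and Gabpa is the DNA-binding subunit of GABP, which acts at many housekeeping and mitochondrial genes. In the pancreas, Ehf and Elf3 are known from ductal epithelium and from ductal tumours.

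The deleted gene was checked before any other. Ptf1a, which encodes the basic helix-loop-helix factor that drives acinar enzyme genes, stood at 566, 601 and 652 normalized counts in controls 1 to 3 and at 19.8, 70.1 and 10.2 in Ptf1a cKO 1 to 3, a log2 fold change of -4.41 (SE 0.49, limma with Benjamini-Hochberg adjustment, adjusted p = 3.29e-04). Of 11 acinar markers, which define the labelled tissue, 8 fell and 0 rose, where 16.8% of all genes were called lower and 17.1% higher. Together the markers still made up between 20.7% and 39.5% of the counts assigned to genes in Ptf1a cKO libraries, compared with 49.3% to 53.3% in controls. Here a normalized count is the read count per gene after the authors' scaling between libraries, a gene is called changed when its adjusted p is under 0.05, and the fold change is on the log2(value + pseudocount) scale with a pseudocount of 3.41 normalized counts. Samples labelled as separate mice were the replicates. The deposited values keep no sequencing depth, so precision rests on the 3 mice per group.

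Of the 10 ETS genes, 4 rose in Ptf1a cKO pancreata (Ehf, Elf3, Elf1 and Elf4), 2 fell (Ets2 and Erf), and 4 did not pass the test (Ets1, Elf2, Etv6 and Gabpa). Among all genes tested, 33.9% were called, 17.1% as higher and 16.8% as lower in Ptf1a cKO. The groups did not overlap for 6 of the 10 genes, compared with 50.8% of all genes. Their median change was 0.22 on the log2 scale, compared with 0.036 over the whole table. That median lies between Ets1 (0.56) and Gabpa (-0.11), neither of which passed the test. Without Ptf1a cKO 3, Ets1 was -0.018, so the median is not read as a shift of the family. The members therefore changed in both directions, and their largest change, that of Ehf, was a rise. All directions are those under the authors' scaling: with a common total for every library, which shifts the median of all genes to 1.49, Ets2 and Erf turn to higher, and log2 falls smaller than that shift are relative to the other genes.

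**Figure D1:**
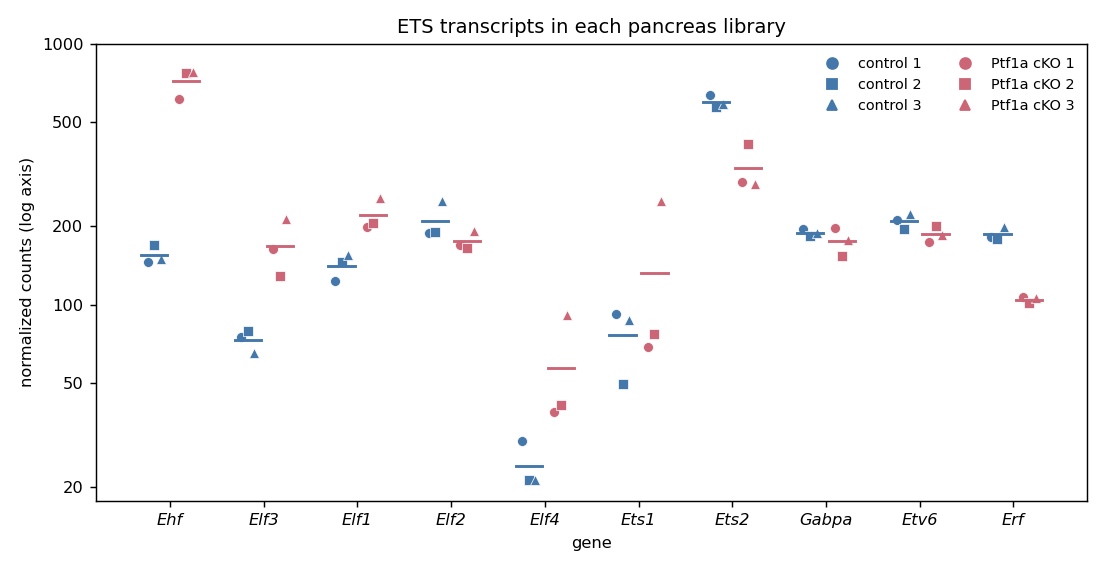
Normalized counts of the 10 ETS genes (log axis) in each of 3 control (blue) and 3 Ptf1a cKO (red) pancreas libraries, with marker shapes for mice 1 to 3 and bars for group means. Ehf moved from a mean of 155 to a mean of 722 with no overlap, while Ets1 and Elf4 had 1 Ptf1a cKO library, mouse 3, far above the other Ptf1a cKO libraries.

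Ehf and Elf3 are the epithelium-specific members, known for their part in gene expression of simple and glandular epithelia. Ehf lies on the minus strand of chromosome 2 (103263433 to 103303278, GRCm38). Its normalized counts were 146, 169 and 150 in controls 1 to 3 and 614, 776 and 777 in Ptf1a cKO 1 to 3. The lowest Ptf1a cKO library was thus above the highest control by a wide margin. The means were 155 ± 12.0 and 722 ± 93.9 (SD, n = 3 per group), a 4.66-fold difference. The log2 fold change was 2.19 (SE 0.13, 95% confidence interval 1.90 to 2.48, limma adjusted p = 1.86e-05), and its p-value ranked 19 among the 10245 genes.

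Elf3 lies on the minus strand of chromosome 1 (135253575 to 135258568, GRCm38). Its normalized counts were 75.3, 79.0 and 65.0 in the controls and 163, 128 and 213 in Ptf1a cKO 1 to 3. Again no Ptf1a cKO library overlapped the controls, although the Ptf1a cKO mice differed more among themselves than they did for Ehf. The means were 73.1 ± 7.25 and 168 ± 42.6 (SD, n = 3 per group), a 2.30-fold difference. The log2 fold change was 1.14 (SE 0.18, 95% confidence interval 0.73 to 1.55, limma adjusted p = 0.00188). For either gene the exact two-sided permutation test gave p = 0.10, the smallest p that 3 mice against 3 allow.

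Set against each other within a library, where scaling between libraries cancels, Ehf was higher relative to Elf3 in every Ptf1a cKO pancreas than in any control. Per kilobase of transcript, the ratio of Ehf to Elf3 was 0.910, 1.00 and 1.08 in controls 1 to 3, so that the levels of both transcripts were about equal there. The ratio was 1.77, 2.83 and 1.71 in Ptf1a cKO 1 to 3, above every control. The log2 difference of this ratio was 1.05 (exact permutation p = 0.10, 0.114 after Benjamini-Hochberg adjustment over 8 ratios).

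Promoters of 4 of the 6 members that were called are shown, so that the letters around their starts can be read. Ehf and Ets1 had no entry, and Elf1 is described without its letters. Sequences came from RefSeq on GRCm38.p6 and span 250 bases before to 50 bases after an annotated start, 300 bases in all. A total of 11 entries for 8 of the 10 genes matched by symbol. Capitals mark, on either strand, the E-box CANNTG bound by basic helix-loop-helix factors and the letters TGGGAA of the TC-box that lies beside an E-box in known PTF1 sites, and the ETS core CCGGAA was also searched. The 4 lines below are Elf3 (chr1:135258423-135258722, minus strand), the upstream start of Elf4 (chrX:48463083-48463382, minus strand), Ets2 (chr16:95702157-95702456, plus strand) and Erf (chr7:25250709-25251008, minus strand), each written 5′ to 3′ along its gene.
Elf3: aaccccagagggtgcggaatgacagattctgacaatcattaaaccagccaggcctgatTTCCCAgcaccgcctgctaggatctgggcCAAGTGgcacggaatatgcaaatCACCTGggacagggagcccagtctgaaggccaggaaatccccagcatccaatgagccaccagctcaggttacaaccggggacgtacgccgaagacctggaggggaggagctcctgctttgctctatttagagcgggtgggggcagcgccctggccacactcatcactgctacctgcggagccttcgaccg
Elf4: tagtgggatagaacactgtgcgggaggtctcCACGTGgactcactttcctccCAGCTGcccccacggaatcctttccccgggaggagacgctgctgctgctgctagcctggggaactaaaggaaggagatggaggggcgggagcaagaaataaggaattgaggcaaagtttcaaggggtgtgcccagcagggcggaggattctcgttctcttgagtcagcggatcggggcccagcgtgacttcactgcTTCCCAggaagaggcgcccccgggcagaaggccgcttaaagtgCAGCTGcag
Ets2: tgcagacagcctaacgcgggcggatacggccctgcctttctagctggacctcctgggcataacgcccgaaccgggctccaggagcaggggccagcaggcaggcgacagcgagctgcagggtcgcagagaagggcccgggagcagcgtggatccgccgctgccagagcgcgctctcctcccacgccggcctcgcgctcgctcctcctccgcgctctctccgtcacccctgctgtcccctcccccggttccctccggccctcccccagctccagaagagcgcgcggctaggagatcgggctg
Erf: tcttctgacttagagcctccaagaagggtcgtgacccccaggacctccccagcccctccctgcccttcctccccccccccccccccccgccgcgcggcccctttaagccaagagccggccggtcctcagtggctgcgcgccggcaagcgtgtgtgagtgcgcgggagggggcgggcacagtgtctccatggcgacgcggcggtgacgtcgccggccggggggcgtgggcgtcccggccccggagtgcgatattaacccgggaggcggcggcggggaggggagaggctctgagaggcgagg

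Elf3 held 2 E-box matches, whose leftmost bases lie 163 and 140 bases upstream of the start, and 1 reverse match to TGGGAA at 192 bases upstream. The printed Elf4 window held 3 E-box matches and 1 reverse match to TGGGAA at 2 bases upstream, and the other annotated start of Elf4 (chrX:48454270-48454569, minus strand) held none of the motifs searched. Of the 2 Elf1 starts, 1 (chr14:79515424-79515723, plus strand) held 3 E-box matches and no TGGGAA, and the other (chr14:79480944-79481243, plus strand) held no match. Starts without a match thus occurred among members that rose as well as among those that fell. Neither of the 2 motifs occurred in the Ets2 and Erf windows, and CCGGAA was in none of these 4, while Gabpa (chr16:84834874-84835173, plus strand) held 1 CCGGAA match on the reverse strand at 92 bases upstream. No base fell in more than 1 match in these windows. Among all 32851 promoters of the same length, 72.3% held CANNTG, 25.6% held TGGGAA, 19.0% held both and 14.9% held CCGGAA, so each motif is common and a match is only a description of the letters.

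Elf1, Elf2 and Elf4 bind a related GGAA site and are best known from lymphoid and myeloid cells. Elf1, widely expressed and active in blood cells, stood at 123, 145 and 155 normalized counts in controls 1 to 3 and at 199, 205 and 257 in Ptf1a cKO 1 to 3. All Ptf1a cKO libraries were above all controls. The log2 fold change was 0.63 (SE 0.14, limma adjusted p = 0.00954), with means of 141 ± 16.3 and 220 ± 31.9 (SD, n = 3 per group).

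Elf4, known from the control of quiescence in T cells, was at 29.9, 21.1 and 21.2 normalized counts in the controls and at 38.8, 41.2 and 90.8 in Ptf1a cKO 1 to 3. The groups did not overlap, but mouse 3 was far above the other Ptf1a cKO mice. The log2 fold change was 1.05 (SE 0.32, limma adjusted p = 0.0344). Without Ptf1a cKO 3 the log2 fold change was 0.67 and the call was lost (adjusted p = 0.0948), and the call was also lost without control 1, control 2 or control 3 (log2 fold changes 1.19, 0.97 and 0.98). The limma adjusted p ranged from 5.90e-07 to 0.0987 over 19 alternatives. Its lowest value came from a common total for every library, under which 9719 of all 10245 genes were called.

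Elf2, a close relative of Elf1 with activating and repressing isoforms, was at 188, 190 and 249 normalized counts in the controls and at 169, 165 and 192 in Ptf1a cKO 1 to 3. These ranges overlapped, and the log2 fold change of -0.24 (SE 0.14) did not pass the test (limma adjusted p = 0.215). Within a library, the ratio of Elf1 to Elf2 per kilobase was 0.915, 1.07 and 0.867 in controls and 1.64, 1.74 and 1.87 in Ptf1a cKO 1 to 3 (exact permutation p = 0.10, 0.114 after adjustment over 8 ratios). Elf1 was thus higher relative to Elf2 in each Ptf1a cKO library than in any control, whatever the scaling.

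Ets1 and Ets2 are the activators that ERK can phosphorylate next to their pointed domain. Ets2, on the plus strand of chromosome 16 (95702075 to 95721051, GRCm38), was at 637, 575 and 589 normalized counts in controls 1 to 3 and at 296, 413 and 291 in Ptf1a cKO 1 to 3. Each Ptf1a cKO library was below each control. The means were 600 ± 32.2 and 333 ± 68.7 (SD, n = 3 per group), and the log2 fold change was -0.86 (SE 0.15, 95% confidence interval -1.19 to -0.53, limma adjusted p = 0.00262). This direction holds for the authors' scaling and turns when every library is given the same total (0.63), a scaling that moves the median of all genes to 1.49. Relative to the median gene, Ets2 stood at -0.86 under that scaling as well.

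Ets1, known from lymphoid and endothelial cells, was at 92.2, 49.5 and 87.5 normalized counts in the controls and at 69.0, 76.9 and 250.1 in Ptf1a cKO 1 to 3. The 2 lower Ptf1a cKO libraries lay inside the range of the controls, and mouse 3 stood alone. The log2 fold change of 0.56 (SE 0.44, 95% confidence interval -0.43 to 1.55) did not pass the test (limma adjusted p = 0.350). Without Ptf1a cKO 3 it was -0.018.

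The level of Ets1 in Ptf1a cKO 3 was 3.43 times the mean of the other 2 Ptf1a cKO libraries, that of Elf4 2.27 times, that of Elf3 1.46 times, that of Elf1 1.27 times and that of Ehf 1.12 times. Leukocyte markers were also high in this library. Their sum over 9 markers in the table, of 16 listed, ranged from 428 to 737 normalized counts in controls and from 1125 to 2558 in Ptf1a cKO pancreata, and 8 of the 9 were highest in Ptf1a cKO 3. The B-cell marker Cd79b, chosen for mention after its values were seen, stood at 94.3 normalized counts in Ptf1a cKO 3 and at 0 in Ptf1a cKO 1. Of all genes, 25.0% were highest in this library. The sum of 10 endothelial markers was between 1341 and 1749 in controls and between 1408 and 1658 in Ptf1a cKO libraries. The part of leukocytes in the levels of Ets1, Elf4 and Elf1 was not tested.

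**Figure D2:**
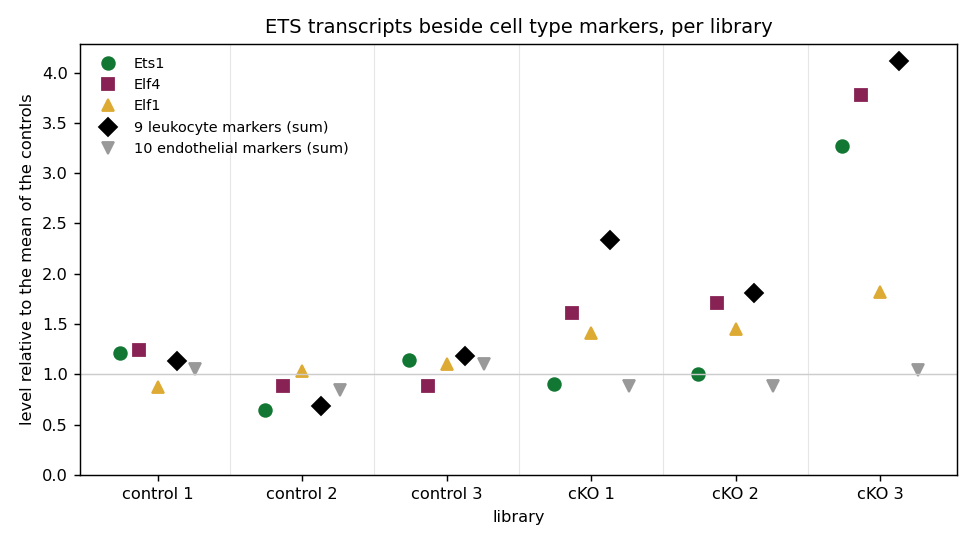
Levels of Ets1, Elf4 and Elf1 and summed levels of 9 leukocyte and 10 endothelial markers in each library, relative to the mean of the 3 controls (linear axis). Ets1, Elf4 and Elf1, like the leukocyte sum, are highest in Ptf1a cKO 3, while the endothelial sum stays near the control mean. Elf4 and Elf1 lie above the control mean in every Ptf1a cKO library.

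Erf and Etv6 are repressors. Erf, which ERK phosphorylation moves out of the nucleus, was at 182, 178 and 198 normalized counts in controls 1 to 3 and at 106, 101 and 106 in Ptf1a cKO 1 to 3. The Ptf1a cKO mice were nearly identical to each other, and all were below every control. The means were 186 ± 10.5 and 105 ± 2.99 (SD, n = 3 per group). The log2 fold change was -0.81 (SE 0.11, 95% confidence interval -1.06 to -0.56, limma adjusted p = 8.42e-04). As with Ets2, the direction turns under a common library total (0.65) and stays at -0.83 relative to the median gene under that scaling. Erf lies on the minus strand of chromosome 7 (25242561 to 25250761, GRCm38).

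Etv6, a repressor with a self-associating pointed domain, was at 212, 196 and 223 normalized counts in the controls and at 173, 200.1 and 184 in Ptf1a cKO 1 to 3. The groups overlapped, and the log2 fold change was -0.17 (95% confidence interval -0.43 to 0.083, limma adjusted p = 0.263). Gabpa was at 196, 183 and 188 normalized counts in the controls and at 196, 153 and 176 in Ptf1a cKO 1 to 3. It overlapped as well, with a log2 fold change of -0.11 (95% confidence interval -0.39 to 0.17, limma adjusted p = 0.505). These intervals leave room for a modest fall of either transcript.

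The ratios within a library set these changes side by side without any scaling. The ratio of Ehf to Ets2 per kilobase was 0.200, 0.255 and 0.222 in controls 1 to 3 and 1.80, 1.64 and 2.32 in Ptf1a cKO 1 to 3. Ehf was thus the lower transcript in every control and the higher one in every Ptf1a cKO library. The ratio of Elf3 to Ets2 was 0.219, 0.255 and 0.205 in controls and 1.02, 0.578 and 1.36 in Ptf1a cKO libraries. The ratio of Ets2 to Erf, the members that fell, differed by a log2 value of -0.049 between the groups (exact permutation p = 0.80). Of the 8 ratios computed, the other 7 did not overlap between the groups, each with the exact permutation p of 0.10 that is the smallest this design allows (0.114 after Benjamini-Hochberg adjustment over the 8). Only the ratio of Ehf to Elf3 was planned. For Ehf or Elf3 over Ets2 or Erf this outcome was fixed beforehand, since those numerators rose and those denominators fell without overlap. Such ratios add no support to the separate changes.

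Among the chosen members, the order of the levels changed between the groups. Per kilobase of the longest annotated transcript, Ets2 led in controls at 154 ± 8.29 normalized counts per kilobase (SD, n = 3), followed by Erf at 53.1 ± 3.01. Gabpa (37.9), Etv6 (36.8), Elf2 (35.3), Elf3 (34.9), Ehf (34.7) and Elf1 (33.3) came next, and each of these overlapped its neighbour in the order. Ets1 at 15.0 and Elf4 at 3.95 were lowest, each apart from the gene above it. In Ptf1a cKO pancreata, Ehf led the members at 162 ± 21.0 normalized counts per kilobase (SD, n = 3), clear of Ets2 at 85.7 ± 17.7. Ets2 and Elf3 (80.3 ± 20.3) overlapped, and Elf1 followed at 52.0 ± 7.53. Gabpa (35.1) and Etv6 (32.6) overlapped, as did Erf (29.8), Elf2 (29.6), Ets1 (26.0) and Elf4 (9.35) each with its neighbour. Spdef, an ETS gene outside the members that is described below, was not ranked. Its level was 154 ± 15.7 normalized counts per kilobase in controls (SD, n = 3), close to that of Ets2. In Ptf1a cKO pancreata the Spdef mean was 110 ± 12.8 (SD, n = 3), below that of Ehf and above that of Ets2. These levels depend on the transcript length taken for each gene, and the table does not tell isoforms apart.

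As a share of the 10 genes' summed counts per kilobase, Ehf made up 7.35%, 8.88% and 7.48% in controls 1 to 3 and 28.2%, 32.5% and 28.7% in Ptf1a cKO 1 to 3. Ets2 went the other way, from 36.8%, 34.8% and 33.8% to 15.6%, 19.9% and 12.4%. Erf made up 11.7% to 12.6% in controls and 5.00% to 6.24% in Ptf1a cKO pancreata. The shares need no scaling between libraries. The groups were apart for the shares of 9 of the 10 genes, all but Ets1, and since the shares sum to a fixed total, a large rise of 1 gene lowers the others. The summed level itself was 444, 425 and 449 normalized counts per kilobase in the controls and 487, 534 and 606 in Ptf1a cKO 1 to 3.

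**Figure D3:**
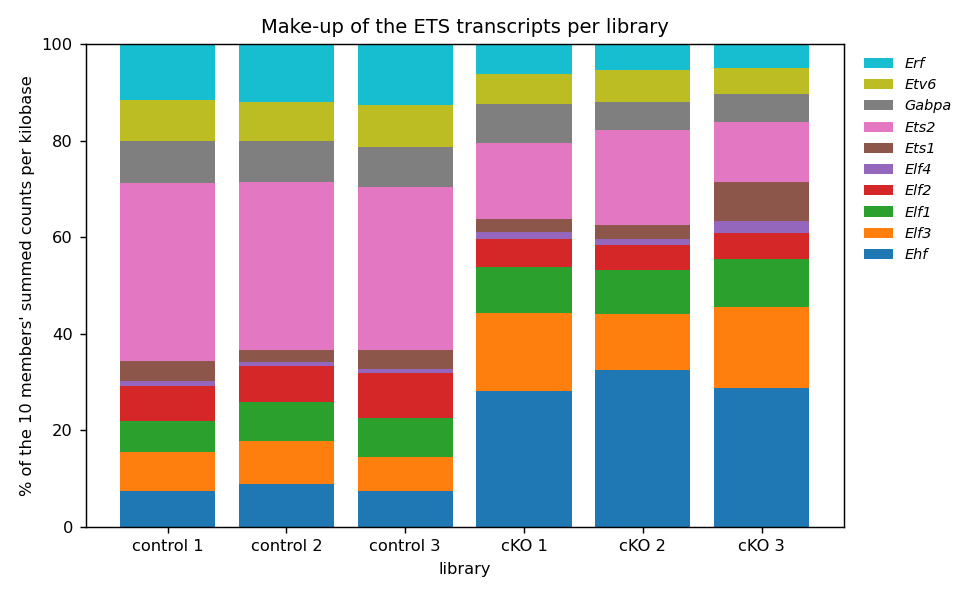
Share of each ETS gene in the summed normalized counts per kilobase of the 10 genes, in percent, 1 bar per library. The bottom segment, Ehf, grows from 7.35% to 8.88% of the sum in controls to 28.2% to 32.5% in Ptf1a cKO libraries, while the Ets2 segment shrinks from at least 33.8% to at most 19.9%.

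Another 16 ETS genes were looked for, and 7 were in the table. Of these, 2 rose, 1 fell and 4 did not pass the test, where 33.9% of all genes were called. Spdef, a factor of goblet and other secretory epithelial cells, was at 275, 282 and 330.1 normalized counts in controls 1 to 3 and at 194, 199 and 239 in Ptf1a cKO 1 to 3, with no overlap (log2 fold change -0.48, SE 0.13, limma adjusted p = 0.0193). Its call was lost without control 3 (-0.40) or Ptf1a cKO 1 (-0.43), and the direction turned under a common library total (1.00). Spdef, which shares with Ehf and Elf3 a preference for epithelial cells, thus went the opposite way under the authors' scaling.

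Etv5, a factor of the Pea3 group that receptor tyrosine kinase signalling induces, was at 17.3, 14.1 and 16.3 normalized counts in the controls and at 33.6, 24.5 and 45.9 in Ptf1a cKO 1 to 3 (log2 fold change 0.95, SE 0.31, limma adjusted p = 0.0404). Elk3, a ternary complex factor that partners with SRF, was at 77.5, 68.8 and 73.7 normalized counts in the controls and at 98.0, 94.3 and 119 in Ptf1a cKO 1 to 3 (log2 fold change 0.48, SE 0.14, limma adjusted p = 0.0263). For either gene the groups did not overlap. The Etv5 call was lost in 5 of 6 fits that left out a library, all but that without Ptf1a cKO 2, and the Elk3 call in 4 of 6, those without control 1, control 2, Ptf1a cKO 1 or Ptf1a cKO 3. Over all 6 of these fits, whether the call was lost or kept, the log2 fold changes were 0.74 to 1.15 for Etv5 and 0.38 to 0.54 for Elk3. Etv3 (0.22), Elk1 (0.18), Elk4 (-0.20) and Sfpi1 (0.79, the older symbol of Spi1, the myeloid and B-cell factor PU.1) did not pass the test, with limma adjusted p between 0.170 and 0.604. Elf5, Erg, Fli1, Fev, Etv1, Etv2, Etv4, Spib and Spic were not analysed here.

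**Figure D4:**
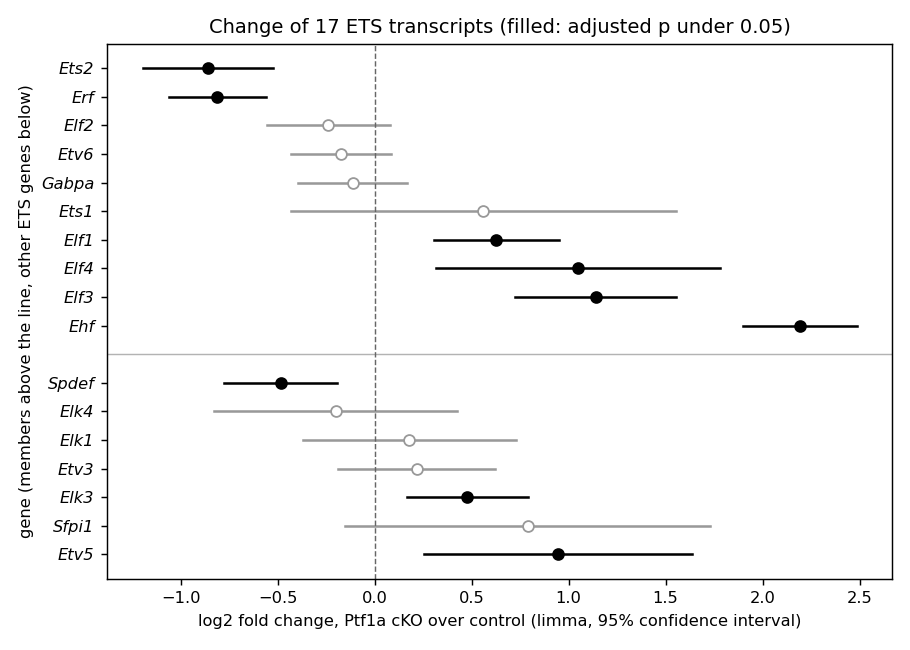
Log2 fold change of Ptf1a cKO over control with 95% confidence interval from limma for 17 ETS genes, the 10 members above the line and 7 further genes below it. Filled points passed an adjusted p of 0.05, namely 6 members and 3 further genes, and Ehf at 2.19 lies farthest from 0.

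Of 14 partners and regulators of ETS factors in the table, 1 rose and 3 fell, with a median log2 fold change of 0.16. Among all genes 33.9% were called, so neither this count nor that of the other ETS genes is read as a result. The corepressor Ncor1 rose (0.39, limma adjusted p = 0.0439), and Srf, the partner of the ternary complex factors, was among those that fell (-0.43, adjusted p = 0.0420). The GABP subunit genes Gabpb1 and Gabpb2 did not pass the test (0.29 and -0.15, adjusted p = 0.195 and 0.396).

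Genes described elsewhere as targets of ELF3 were few in the table, 4 of 9. Of these, 3 rose and 0 fell, where 17.1% of all genes were called higher and 16.8% lower. Whether their rise goes with that of Elf3 was not tested. Erbb2, a receptor tyrosine kinase of the EGFR family, rose by a log2 value of 1.16 (SE 0.16, limma adjusted p = 9.77e-04), from 64.6, 50.3 and 52.9 normalized counts in the controls to 106, 140.2 and 141 in Ptf1a cKO 1 to 3. Tgfbr2, the type II receptor for TGF-beta, rose by 0.88 (adjusted p = 0.00617), and Cldn7, a tight junction protein, by 0.47 (adjusted p = 0.0216). Krt8, a simple epithelial keratin, did not pass the test, at 0.10 (adjusted p = 0.614). Of 6 genes described as targets of GABP, 0 were called in either direction by limma and 0 had groups apart, with a median log2 fold change of 0.0029, and 0 had an unadjusted p under 0.05. Among all 10245 genes, 33.9% were called and 50.8% had groups apart, and 4645 genes had an unadjusted p under 0.05.

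Genes that report ERK activity are given beside Ets2 and Erf, whose proteins ERK modifies. Of 5 in the table, 2 rose and 0 fell, where 33.9% of all genes were called, 17.1% as higher. Dusp6, a phosphatase induced by and acting on ERK, was at 38.2, 36.1 and 35.1 normalized counts in the controls and at 97.7, 72.0 and 118 in Ptf1a cKO 1 to 3 (log2 fold change 1.29, SE 0.19, limma adjusted p = 0.00132). Phlda1 had a log2 fold change of 1.14 (SE 0.24, adjusted p = 0.00709). Spry2, Spred1 and Spred2, feedback inhibitors of the pathway, did not pass the test, with log2 fold changes of 0.44, 0.57 and 0.35. A transcript level says nothing of the phosphorylation of the ETS proteins themselves.

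Markers of other cell types moved with the genotype and stand beside the rise of Ehf and Elf3. Of 11 ductal and simple epithelial markers in the table, of 13 listed, 6 rose and 0 fell, and their sum was between 6840 and 7623 normalized counts in controls and between 29562 and 113425 in Ptf1a cKO libraries. Most of that sum was Spp1: without it, an alternative chosen after seeing the data, the other 10 markers summed to between 5282 and 5665 in controls and between 8085 and 8591 in Ptf1a cKO libraries, a 1.52-fold difference of the means. The secreted phosphoprotein gene Spp1 (5.14), the ductal transcription factor gene Sox9 (2.21), the tight junction gene Cldn4 (1.54) and the adhesion gene Epcam (1.37) rose most. Krt19 (-0.012) and Cdh1 (0.014), named after their values were seen, did not pass the test. Ehf, at a log2 fold change of 2.19, was close to Sox9 and above Epcam. Of 10 fibroblast and stellate markers 9 rose, with sums of 3060 to 3477 normalized counts in controls and 6041 to 10657 in Ptf1a cKO libraries. Of 9 leukocyte markers 5 rose, led by Lyz2 (1.44), Emr1 (1.36), Itgam (1.29) and Cd68 (1.11), and of 10 endothelial markers 1 rose, Vwf (0.84). Among all genes, 17.1% were called higher. No marker in the table of the ductal, fibroblast or endothelial lists was at 0 in any library. What share of the Ehf and Elf3 rise goes with these cell types was not tested.

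Over the 6 libraries, the genes whose log2 values followed Ehf most closely were Ephx1, Fam135a and Glb1l (Pearson r = 0.999, 0.998 and 0.998), with log2 fold changes of 1.57, 0.57 and 1.67. For Elf3 they were 4930402H24Rik, Itgb6 and Alcam (r = 0.998 for each), with log2 fold changes of 0.96, 1.81 and 1.07. These are descriptions over 6 points that fall into 2 groups, and any gene that separates the groups scores high: 452 genes had r above 0.95 with Ehf and 422 with Elf3.

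Under the 5 scalings tried, Ehf ran from 2.17 to 3.67 and Elf3 from 1.12 to 2.59 on the log2 scale, above the median gene in each, and Ets2 and Erf were below it in each, although their own sign turned under both common totals. The median of all genes was 0.036 with the authors' scaling, 0.013 with median of ratios, 0.081 with a common 75th percentile, 0.96 with a common total without the acinar markers and 1.49 with a common total.

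**Figure D5:**
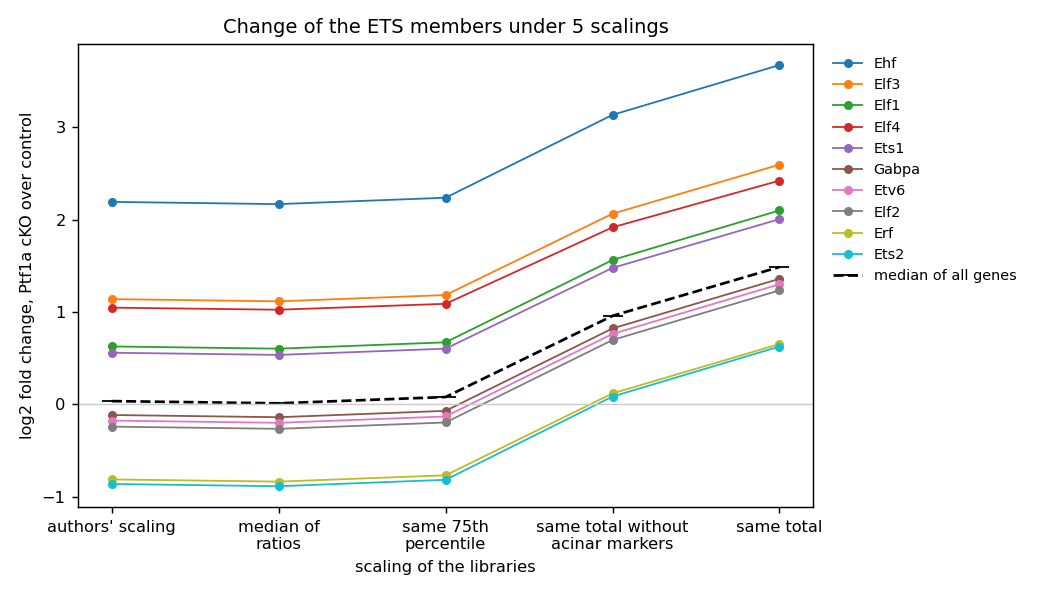
Log2 fold change of the 10 ETS genes, Ptf1a cKO over control, under 5 scalings of the libraries, with the median of all genes dashed. All curves rise together with the median gene, from 0.036 to 1.49, so that Ehf and Elf3 stay above it and Ets2 and Erf below it.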

How the data were processed

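RNA-seq libraries were made from total RNA of whole pancreas. The submitters' processing notes name TopHat2 2.0.4, Bowtie 0.12.7.0, SAMtools 0.1.18.0, HTSeq 0.6.0 and the mm9 build, and the study's methods name edgeR with TMM. The authors deposited a single table of signal values, namely normalized read counts with decimals, for 10245 gene symbols and 6 libraries, and the lowest maximum of a gene is 27.6. A further 3 entries hold the counter's unassigned and non-unique reads, 75.7% to 82.6% of a library's values, and were kept out. Whole reads could not be recovered, so no count test was run, and the groups were compared with limma 3.58.1 in R 4.3.3. Values were divided by 13.6 in all libraries, 0.25 was added (3.41 normalized counts), and log2 values were fitted with lmFit and eBayes with trend, two-sided, with Benjamini-Hochberg adjustment over all genes. The filter on a mean of 0.25 removed 0 genes. The fit was tested on simulated data.

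The members and all gene lists were chosen with earlier results of these data known. Named were all ETS genes, Ptf1a, the 4 called genes of each further list with the largest change, and the 3 genes most correlated with Ehf and with Elf3, except that values of a few list genes are not reported here. Sums, ratios, exact permutation tests and figures were made in Python 3.11.15 with pandas 2.3.3, scipy 1.17.1 and matplotlib 3.10.9. Positions and the longest transcript of each gene were looked up by symbol in GENCODE vM21 on GRCm38, which is not the build of the alignment. The labels do not say how cages, litters or library batches were arranged. Alternatives covered pseudocounts, filters, 4 scalings, limma settings, sex, a replicate block, each library left out and a stricter threshold.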

Additional observations from a re-analysis of the deposited data

How the results depend on the processing

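Over 20 alternatives Ehf (log2 fold change 2.10 to 3.67) and Elf3 (0.96 to 2.59) kept their direction and their call, and leaving out 1 library gave 2.13 to 2.30 and 0.96 to 1.31. The filters, limma settings, sex covariate, replicate block and stricter threshold leave the log2 fold change as it was, so they bear on the call and not on the direction. The log2 difference of the Ehf to Elf3 ratio was 0.76 to 1.18 over 9 alternatives, and 0.82 to 1.18 with 1 library left out. The count of members called higher was 4, and 3 to 4 with 1 library left out. The count called lower was 2, and 2 with any library left out. With the same total for every library 10 members were called higher and 0 lower, and with the same total without the acinar markers 8 and 0. These totals turned Elf2 (to 1.23 and 0.70), Ets2 (0.63 and 0.086), Gabpa (1.36 and 0.82), Etv6 (1.30 and 0.76), Erf (0.65 and 0.12), Spdef (1.00 and 0.46) and Elk4 (1.17 and 0.67), beside shifts of 1.49 and 0.96 in the median gene. In the whole table they called 9719 and 8869 genes, 98.7% and 97.1% of them as higher, compared with 3475 and 50.4% under the authors' scaling. Ets1 turned to -0.018 without Ptf1a cKO 3 (range -0.018 to 0.89 with 1 library left out), Gabpa to 0.0037 in female mice and Elk4 to 0.065 without Ptf1a cKO 1 (range -0.41 to 0.065), and none of these values passed the test.

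Of the other ETS genes 3 were called, compared with 7 and 6 under the common totals, 1 with a filter on a mean of 100 normalized counts (which removes 5 of the 7, and Elf4 of the members), 1 in female mice, 0 at an adjusted p under 0.01, and 0 to 4 with 1 library left out. At an adjusted p under 0.01, 1794 genes of the table were called. The values for single other ETS genes and Ptf1a under these alternatives were added after seeing the data. Deviations from the group mean correlated at 0.039, 0.13 and 0.14 between mice with the same number in both groups. Between mice with different numbers the correlations ran from -0.20 to 0.083. These few values cannot settle whether the numbers pair the mice. With the replicate block 3525 genes of the table were called, with 4 members higher, 2 lower and 3 other ETS genes. Ehf stood at 2.19 and Elf3 at 1.14 under the block, and the calls of all 10 members were as without it. The deposited values keep no depth, and 3 mice per group allow no exact p under 0.10.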
